A study of Bos taurus with 6 samples.

Results

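The MHC class II genes and their transactivator were followed in 6 RNA libraries from the endometrium, which lines the uterus, of cattle (Bos taurus). The set was chosen by name and holds 10 genes of 34733 named genes: the transactivator CIITA, the invariant chain CD74, the classical chains BOLA-DRA, BOLA-DRB3, BOLA-DQA1 and BOLA-DQB, the peptide editors BOLA-DMA and BOLA-DMB, the editor's partner BOLA-DOA and the ruminant chain BOLA-DYA. By symbol 9 were listed. The other, BOLA-DQA1, was matched through a synonym in the RefSeq gene table of assembly ARS-UCD2.0 to the entry LOC100848815 and is given under that name. The study sorted endometrial stromal preparations of the luteal phase by the dye Hoechst into side population (SP) cells, which pump the dye out, and main population (MP) cells, which keep it, with 3 libraries each. Per the labels' protocols, all uteri were healthy organs from slaughterhouses, the luminal epithelium was taken off, collagenase freed the cells, and propidium iodide marked dead cells for removal in both groups. Breed and age are not stated there. No antibody gate is named, so both groups can hold cells of several types.

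Class II molecules are pairs of an alpha and a beta chain that show peptides from endosomes to CD4+ T cells. CD74 guides new pairs to the endosome and blocks their groove, DM exchanges its remnant for other peptides, and DO restrains DM. Nearly all of these genes depend on CIITA, a coactivator that binds no DNA itself and is recruited by RFX, NFY and CREB factors at class II promoters. Macrophages, dendritic cells and B cells make CIITA without a stimulus, and interferon gamma induces it in endothelial, epithelial and stromal cells. Cattle have DR and DQ but no DP, and their class II region is split by an inversion on chromosome 23 into a IIa block with DR and DQ and a IIb block with DY, DO and DM. DRB3 is the main expressed DRB gene, and the number of DQ genes varies between haplotypes.

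The files give no counts but FPKM, which scales a gene's fragments by its length and by the size of its library. Low values placed the depth of the libraries, relative to SP replicate 1, at 1.60 and 1.82 for SP replicates 2 and 3 and at 1.99 to 3.18 in MP, so the deepest SP library was still below the shallowest of MP. Of the dye exporters behind the gate, ABCB1 was at 54.1 to 111 FPKM in SP and at 3.76 to 16.8 FPKM in MP. ABCG2 overlapped, at 138, 97.9 and 66.1 FPKM in SP against 17.1, 23.7 and 71.8 FPKM in MP, with replicate 3 lower in SP. The column headers give same-numbered SP and MP libraries one stroma number. Still, nothing in the labels ties a replicate to an animal of its own. The p-values therefore measure the spread of these samples alone, part of which may be technical. These are bulk samples, in which fewer cells of a type and less RNA per cell cannot be told apart. The file headers of all MP libraries, and of no SP library, carry the word micro, and what it marks cannot be told apart from the population.

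CIITA was higher and DOA lower in SP, and the levels of the other tested class II genes overlapped between the populations, with wide intervals of the difference. Of the 10 genes, 9 passed the filter (at least 1 FPKM in at least 3 libraries) and DYA did not. Of the 9 tested, CIITA rose, DOA fell and 7 did not pass (limma on log2(FPKM + 1), Benjamini-Hochberg adjusted p under 0.05 over 12127 genes). Over all tested genes 39.2% were called, 20.5% higher and 18.7% lower in SP. With each library rescaled to the same sum, 68% of all calls were higher in SP, against 52.3% as deposited, and CIITA (limma adjusted p = 0.0235) and DOA (0.00144) were called under it too. Quantile normalization also called both (limma adjusted p = 0.034 and 0.00252). Median centring called DOA (limma adjusted p = 0.00162) but not CIITA (0.0573). The median log2 fold change of the 9 genes was −0.17, beside 0.01 over all tested genes. The SP and MP values did not overlap in 2 of the 9 genes, and in 54.8% of all tested genes.

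**Figure D1:**
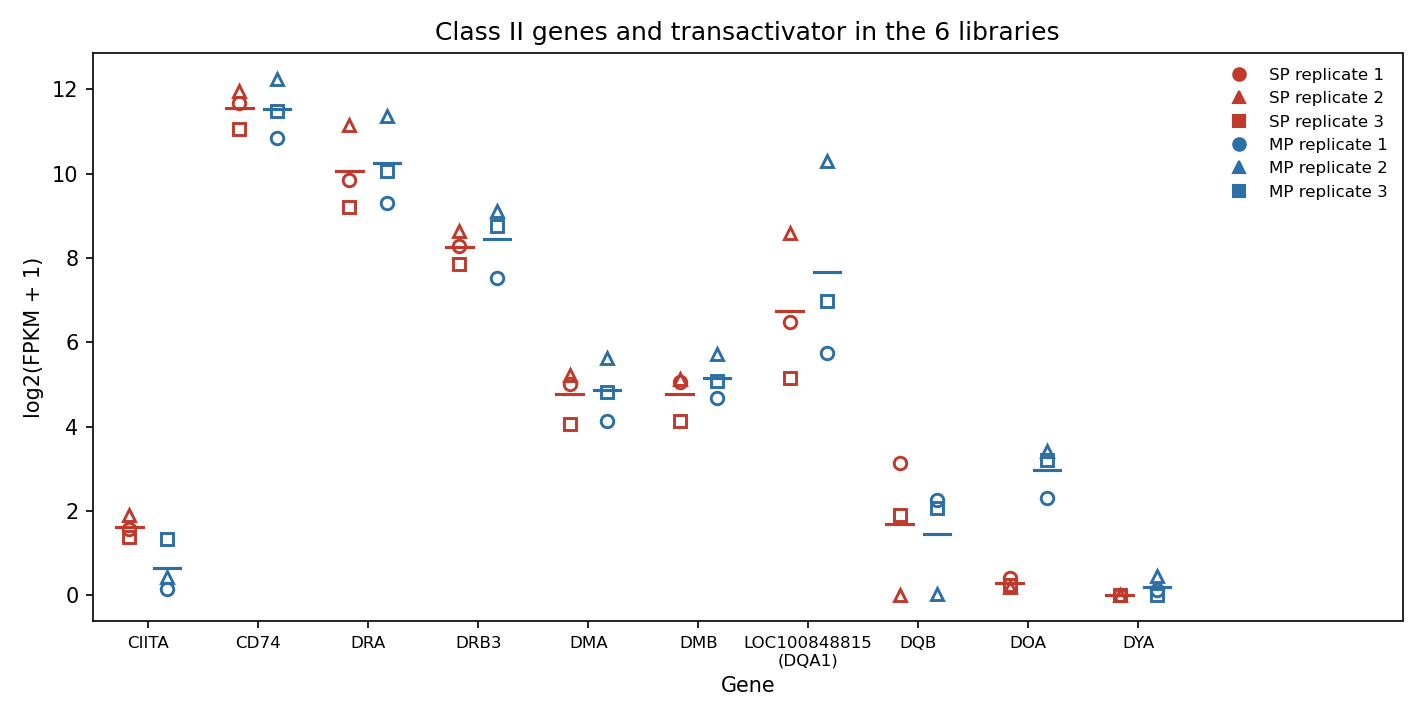
Level of each of the 10 genes (horizontal axis) in the 6 libraries on the log2(FPKM + 1) scale; red is SP, blue is MP, the symbol gives the replicate number and bars are means of 3 libraries. CIITA lies higher and DOA lower in SP, and the triangles of replicate 2 lie at the top for DRA and LOC100848815 and at 0 for DQB.

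CIITA lies on chromosome 25 from 9542189 to 9601544 (build ARS-UCD1.2, as for all positions given here). In order of replicate number, its level was 1.98, 2.77 and 1.61 FPKM in SP, against 0.106, 0.359 and 1.51 FPKM in MP. All SP values lay above all MP values, but MP replicate 3 came within 0.06 of SP replicate 3 on the log2(FPKM + 1) scale. SP had a mean of 2.12 ± 0.590 FPKM, and MP one of 0.659 ± 0.749 FPKM (SD, n = 3 each). The log2 fold change was 0.99 ± 0.33 (SE; limma adjusted p = 0.0474). An exact permutation test (two-sided) returned p = 0.1, the smallest that 3 against 3 libraries allow. Leaving out SP replicate 1, 2 or 3 ended the call (limma adjusted p = 0.102, 0.134 and 0.0734), as did leaving out MP replicate 1 or 2 (limma adjusted p = 0.137 and 0.131). Leaving out MP replicate 3 kept it (log2 fold change 1.33, limma adjusted p = 0.00972). The MP values then left were both under 1 FPKM, so CIITA was tested only through SP and the filter fixed its direction in advance. Over all alternatives CIITA stayed higher in SP in 24 of 24 and was called in 7, with limma adjusted p from 0.0091 to 0.281. The smallest came without MP replicate 3, with the genes tested over all libraries. Each left-out library counts among the 24 both with its own filter and with the genes tested over all libraries. With replicate number as a further term in the fit CIITA was not called (limma adjusted p = 0.0625). Since all SP values lay above all MP values, leaving out libraries could not change the sign.

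CD74 (chromosome 7, 61747921 to 61755746), the invariant chain, was the most abundant of the set per length. Its level was 3264, 3985 and 2118 FPKM in SP replicates 1 to 3 and 1825, 4854 and 2854 FPKM in MP replicates 1 to 3. This put CD74 between rank 21 and rank 85 of all named genes in every library. The groups overlapped, with the highest and the lowest value both in MP. The log2 fold change was 0.04 with a 95% interval from −0.90 to 0.98 (limma adjusted p = 0.941). Per unit of CIITA there were 1312 to 1649 units of CD74 in SP, and 17231, 13536 and 1888 in MP replicates 1 to 3. In MP replicates 1 and 2 the CIITA level divided by was 0.106 and 0.359 FPKM, under the 1 FPKM of the filter, so these ratios are uncertain.

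BOLA-DRA (chromosome 23, 25838391 to 25843092), the alpha chain of DR, reached 925, 2275 and 589.9 FPKM in SP, in order of replicate number, against 631, 2625 and 1072 FPKM in MP. Its beta chain partner BOLA-DRB3 (chromosome 23, 25723691 to 25734819) was at 309.9, 399 and 232 FPKM in SP and at 182, 549.6 and 430.3 FPKM in MP. Both genes were highest in replicate 2 of either population, and the groups overlapped. The log2 fold changes were −0.17 for DRA (95% interval −1.62 to 1.28, limma adjusted p = 0.839) and −0.19 for DRB3 (−1.19 to 0.80, limma adjusted p = 0.734). Per length the alpha chain exceeded the beta chain in every library, by 2.49 to 5.70 times, with the 2 highest ratios in the replicate 2 libraries. CD74 exceeded DRA by 1.75 to 3.59 times, with the 2 lowest ratios in the replicate 2 libraries. Reads of DRB genes can be split between similar copies; DRB3 took 95.6% to 99.5% of the summed DRB level.

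The editors stood far below the chains they act on. BOLA-DMA (chromosome 23, 7263693 to 7269361) was at 31.3, 36.4 and 15.8 FPKM in SP against 16.5, 48.8 and 27.2 FPKM in MP, in order of replicate number. BOLA-DMB (chromosome 23, 7246590 to 7253434) was at 32.1, 33.7 and 16.4 FPKM in SP and at 24.7, 51.6 and 32.9 FPKM in MP. The groups overlapped for both, at log2 fold changes of −0.09 (95% interval −1.13 to 0.95) and −0.40 (−1.25 to 0.46). The chains of DM were close to even per length, with a DMA to DMB ratio of 0.962 to 1.08 in SP and 0.667 to 0.947 in MP. DRA exceeded DMA by 29.5 to 62.5 times.

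BOLA-DOA (chromosome 23, 7314757 to 7323452), the alpha chain of DO, fell. SP replicates 1 to 3 held 0.329, 0.155 and 0.193 FPKM, and MP replicates 1 to 3 held 3.96, 9.76 and 8.23 FPKM. All SP values lay below all MP values. The log2 fold change was −2.69 ± 0.31 (SE; limma adjusted p = 0.00192; exact permutation p = 0.1). Every SP value was under 1 FPKM, so DOA was tested only through MP and the filter fixed its direction in advance. It was called in all 19 alternatives that tested it (adjusted p from 0.00137 to 0.0113). As a share of DMA, DOA was at 0.427% to 1.22% in SP and at 20.0% to 30.2% in MP. Its beta chain BOLA-DOB, from the list of other class II loci, was at 1.62, 0.336 and 1.26 FPKM in SP and at 4.46, 4.47 and 3.34 FPKM in MP, also with no overlap (log2 fold change −1.35 ± 0.30 SE, limma adjusted p = 0.012). The call of DOB was lost without replicate numbers 1 and 2 (limma adjusted p = 0.0563 and 0.0946). DO is best known from B cells, and B cell markers were likewise lower in SP. Their summed level was 1.90 to 5.16 FPKM in SP and 28.8, 12.3 and 171 FPKM in MP replicates 1 to 3. Within MP, DOA was highest in replicate 2, where this sum was lowest. The B cell markers MS4A1, PAX5, CD22 and POU2AF1 are listed at 0 in all SP libraries. In MP too PAX5 is listed at 0 in all libraries, and MS4A1 was at 0 to 0.244 FPKM. Their part in the fall of DOA was not tested.

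BOLA-DYA (chromosome 23, 7072088 to 7077975), an alpha chain found in ruminants, is listed at 0 in all SP libraries and in MP replicate 3, and was at 0.0930 and 0.364 FPKM in MP replicates 1 and 2. Its partner BOLA-DYB is listed at 0 in all 6 libraries. At this level DYA could not be compared, and the shallower SP libraries limit what a 0 there says.

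**Figure D2:**
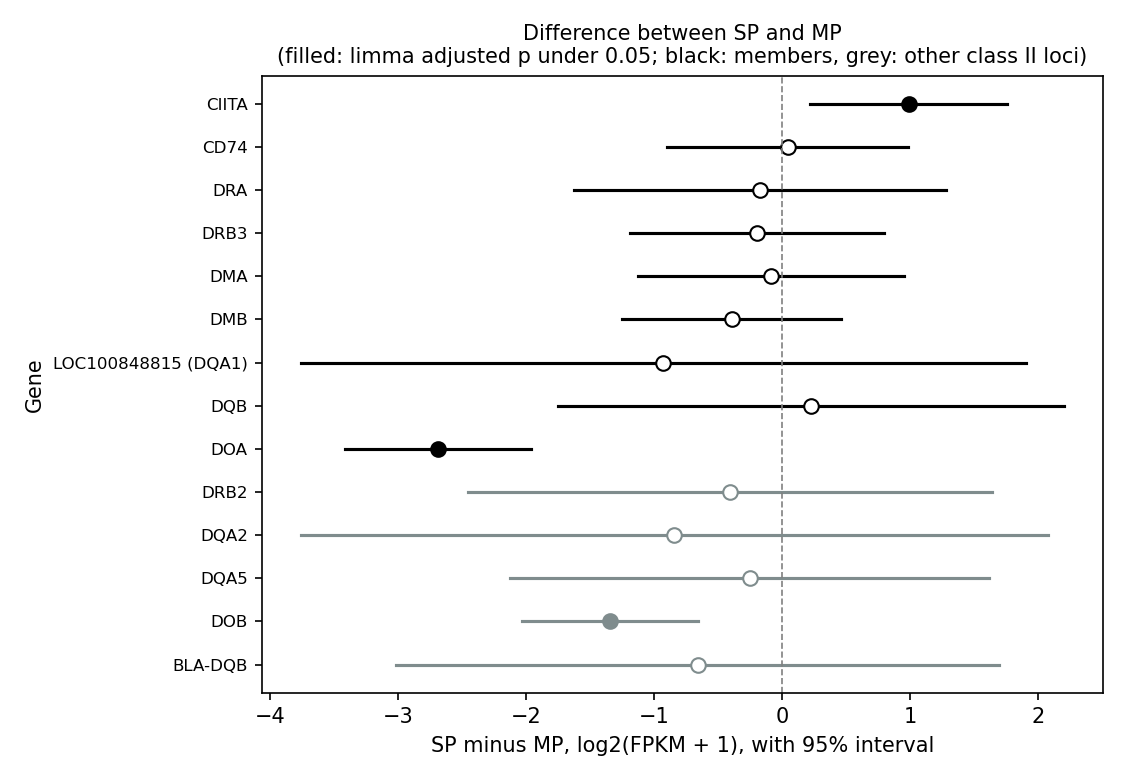
SP minus MP difference on the log2(FPKM + 1) scale with its 95% limma interval (horizontal axis) for the 9 tested genes (black) and 5 other class II loci (grey); filled circles passed. CIITA lies to the right of 0, DOA and DOB to the left, and the intervals of all others include 0.

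The DQ loci, which are polymorphic and duplicated, had values that split by replicate number. LOC100848815 (chromosome 23, 25691259 to 25695296), the entry matched to DQA1, had 88.0, 383 and 34.7 FPKM in SP, in order of replicate number, against 52.5, 1249 and 125 FPKM in MP. Replicate 2 was the highest in both populations. BOLA-DQB (chromosome 23, 25607491 to 25620857) showed the reverse: it was at 7.82 and 2.75 FPKM in SP replicates 1 and 3 and at 3.82 and 3.21 FPKM in MP replicates 1 and 3, but is listed at 0 in SP replicate 2 and was at 0.0207 FPKM in MP replicate 2. The SP against MP log2 fold changes were −0.93 for LOC100848815 (95% interval −3.76 to 1.90, limma adjusted p = 0.563) and 0.23 for DQB (−1.75 to 2.20, limma adjusted p = 0.845).

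The other DQ entries fell into the same pair of patterns. BLA-DQB, a second beta chain entry (chromosome 23, 25672687 to 25680507), was high in replicate 2, with 412 FPKM for SP and 876 FPKM for MP, against 55.4 to 206 FPKM in the other 4 libraries. BOLA-DQA2 (chromosome 23, 25582895 to 25589220) was at 0.126 and 0.526 FPKM in the replicate 2 libraries and at 8.38 to 23.4 FPKM in the others. BOLA-DQA5 (chromosome 23, 25631993 to 25643886) is listed at 0 in SP replicate 2, was at 0.0581 FPKM in MP replicate 2 and at 3.36 to 4.78 FPKM in the others. The 3 entries that nearly vanished in replicate 2, DQA2, DQB and DQA5, are neighbours at the DQ end of the IIa block, and the 2 that were high there lie next to each other on the DRB3 side. BOLA-DRB2, a minor DRB gene, was also highest in replicate 2, with 16.9 FPKM for SP and 25.3 FPKM for MP, against 1.17 to 6.15 FPKM in the others.

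**Figure D3:**
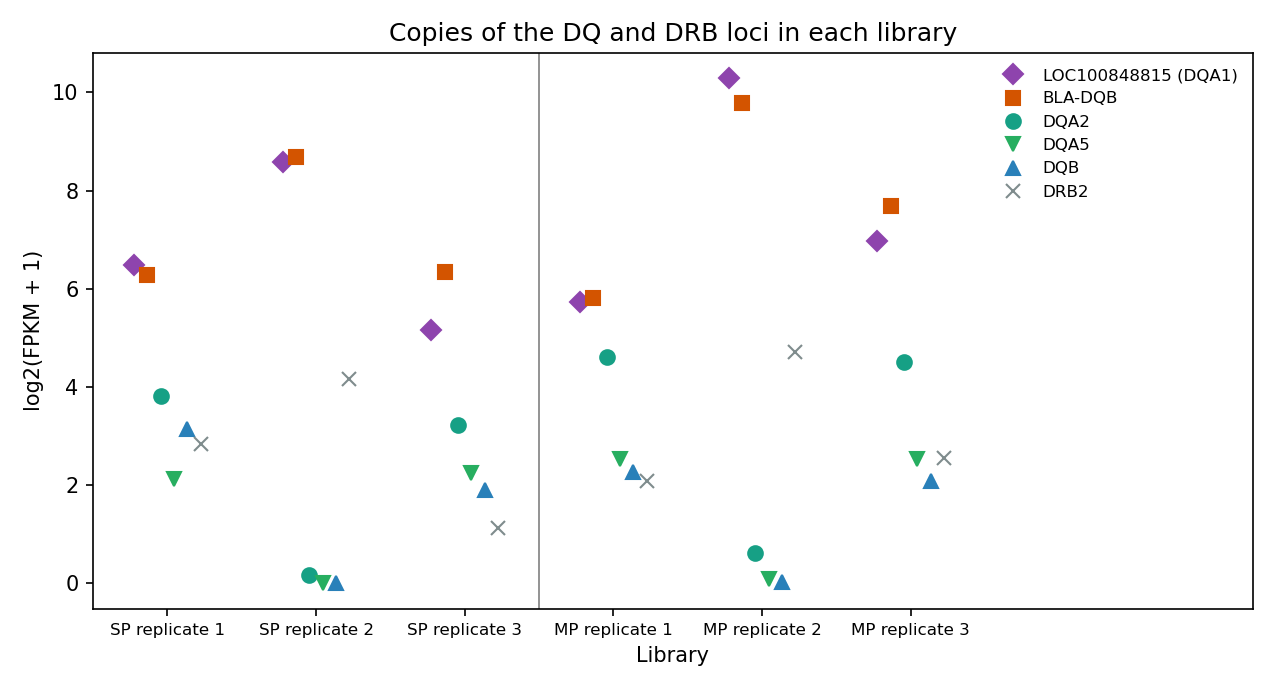
Level of 5 DQ entries and DRB2 on the log2(FPKM + 1) scale (vertical axis) in each library. In replicate 2 of both SP and MP, LOC100848815 and BLA-DQB are at their highest while DQA2, DQA5 and DQB lie under 1 FPKM.

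Summed over the copies of a chain, DQ did not drop out in replicate 2. The DQA entries together came to 104, 383 and 46.8 FPKM in SP replicates 1 to 3 and to 80.7, 1249.96 and 152 FPKM in MP, and the DQB entries to 84.3, 412 and 82.9 FPKM in SP and to 59.2, 876 and 209 FPKM in MP. LOC100848815 made up 99.97% and 99.95% of the DQA sum in replicate 2 of SP and MP, against 65.0% to 84.3% elsewhere. BLA-DQB made up 90.7% to 98.5% of the DQB sum outside replicate 2. DRA exceeded the summed DQA level in every library, least so in MP replicate 2 and by 5.94 to 12.6 times in the others.

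A fit with population and replicate number as terms asked whether libraries of the same number were alike. By limma 0 of 12825 genes passed after adjustment (0%), and 1004 (7.83%) had an unadjusted p under 0.05. Of the class II genes tested, 3 were among these. They were DRA, LOC100848815 and DQB, with limma adjusted p of 0.441, 0.374 and 0.233. Of the other DQ entries, DQA2 had the 3rd smallest and DQA5 the 15th smallest p of all genes (limma adjusted p = 0.139 and 0.165), and BLA-DQB ranked 59 (limma adjusted p = 0.357). The column headers give the SP and MP libraries of a replicate number the same stroma number, but nothing ties a number to an animal, and whether libraries of a number share a haplotype was not tested.

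The sign of the SP against MP difference also followed the replicate number. In the libraries numbered 1 all 7 genes that had not passed were higher in SP, with a median difference of 0.77 on the log2 scale. In those numbered 2 and 3 all 7 were lower in SP, with medians of −0.41 and −0.86. Over all tested genes these medians were 0.04, −0.03 and 0.03. DOA was lower and CIITA higher in SP in all 3. Libraries of the same number were set side by side here as a description only, since they are not known to be pairs. The 7 signs are not separate observations: DMA, DRA, LOC100848815, DRB3 and DMB correlated with CD74 at r from 0.856 to 0.984. For DQB the libraries numbered 2 held 0 FPKM in SP and 0.0207 FPKM in MP.

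The levels were set beside markers of the cells that could carry class II. Macrophage markers were far lower in SP: of 16 listed, 12 were tested, 10 fell and 0 rose. Over all tested genes 18.7% were lower and 20.5% higher in SP. With each library rescaled to the same sum 1 macrophage marker rose, as did 1 without MP replicate 3. Without replicate number 3 only 4 were tested, of which 2 fell and 1 rose. The median log2 fold change was −3.99, and 5 of the 12 were tested only through MP. C1QB, a complement chain of macrophages, was at 0.783 to 2.02 FPKM in SP and 91.3 to 116 FPKM in MP, and AIF1, a calcium-binding protein of macrophages, at 0 to 0.286 and 30.2 to 51.4 FPKM. TYROBP, an adaptor of myeloid receptors, and C1QC had log2 fold changes of −5.54 and −5.91. The summed macrophage level was 123 to 146 FPKM in SP, of which CD14 and CD68 made up at least 84.9%, and 673 to 1238 FPKM in MP; MARCO and MS4A7 are listed at 0 in all SP libraries, and MARCO in all MP libraries too. CD14 and CD68 did not pass: CD14 was at 86.9 to 105 FPKM in SP and at 38.9 to 104 FPKM in MP. The summed level of the 10 class II genes overlapped, at 3012 to 7116 FPKM in SP and 2740 to 9389 FPKM in MP. Most of this sum came from CD74 and DRA in every library, and CIITA and DOA alone did not overlap.

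Of 14 dendritic cell markers 6 were tested and 3 fell: FCER1A, CD1E and BATF3, with log2 fold changes of −4.03, −2.53 and −1.73, of which FCER1A and CD1E were tested only through MP. Their sum was 21.1 to 36.5 FPKM in SP and 34.6 to 96.2 FPKM in MP, and FLT3, XCR1 and CD1B are listed at 0 in all SP libraries. FCER1A also marks mast cells, of whose 7 markers 5 were tested and 4 fell, 2 of them tested only through MP. Such a test fixes the direction of a gene through the filter. Of 12 B cell markers 3 were tested, and CD79A and MZB1 fell, both tested only through MP. Of 15 T and NK cell markers 7 were tested and 7 fell, 6 of them tested only through MP. Among all tested genes 18.7% were lower in SP. CD3E was at 0.0425 to 0.261 FPKM in SP and at 8.78 to 19.5 FPKM in MP. The values of CD74, DRA, DRB3, DMA and DMB overlapped between the populations, and the macrophage and the T and NK cell marker sums did not. Overlap of 3 against 3 libraries does not show equal levels. Which cells carried class II was not tested.

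Among all tested genes 20.5% were higher and 18.7% lower in SP. Endothelial markers rose in SP, 15 of 16, with CLDN5 the exception and a median log2 fold change of 2.37. This count was 15 without MP replicate 3, but 4, 9 and 11 without SP replicates 1, 2 and 3, 8 and 4 without MP replicates 1 and 2, 7 with no filter on low values, and 0 without replicate number 1 or without number 2. CDH5, the cadherin of vessel walls, was at 132 to 177 FPKM in SP, against 6.81, 18.5 and 51.1 FPKM in MP in order of replicate number, and the summed endothelial level was 1918 to 3055 FPKM in SP and 208, 382 and 1167 FPKM in MP. Within MP, CIITA and this sum were both lowest in replicate 1 and highest in replicate 3, and within SP their orders differed, with CIITA highest in replicate 2 and the sum in replicate 1. No epithelial marker was called: 0 of 14 passed by limma, and 0 had an unadjusted p under 0.05. Their median log2 fold change was −0.71, and with the replicate block 3 were lower in SP. The epithelial sum, like the class II sum, was highest in replicate 2 of each population. It was 232, 2033 and 1159 FPKM in SP replicates 1 to 3 and 1154, 5189 and 1363 FPKM in MP replicates 1 to 3. Within SP the epithelial sum was lowest in replicate 1 and the class II sum in replicate 3. Highest in replicate 2 of both populations were 6 of the 9 tested class II genes and 16% of all tested genes. EPCAM, an epithelial adhesion molecule, was at 432 and 609 FPKM in the replicate 2 libraries and at 30.3 to 134 FPKM in the others. CLDN4, a tight junction protein, was at 675 and 2523 FPKM in the replicate 2 libraries and at 62.3 to 673 FPKM in the others. Stromal fibroblast markers fell, 12 of 14 (2 tested only through MP; 4 of 12 without replicate number 2 and 6 of 8 without number 3), with DCN (decorin) at 126 to 194 FPKM in SP and 1635 to 6200.03 FPKM in MP, and 6 of 10 tested markers of pericytes and smooth muscle also fell (1 without replicate number 2). The summed fibroblast level was 305 to 488 FPKM in SP and 3027 to 11679.8 FPKM in MP. The part of endothelial cells in the CIITA difference, and of epithelial cells in the replicate 2 levels, was not tested.

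**Figure D4:**
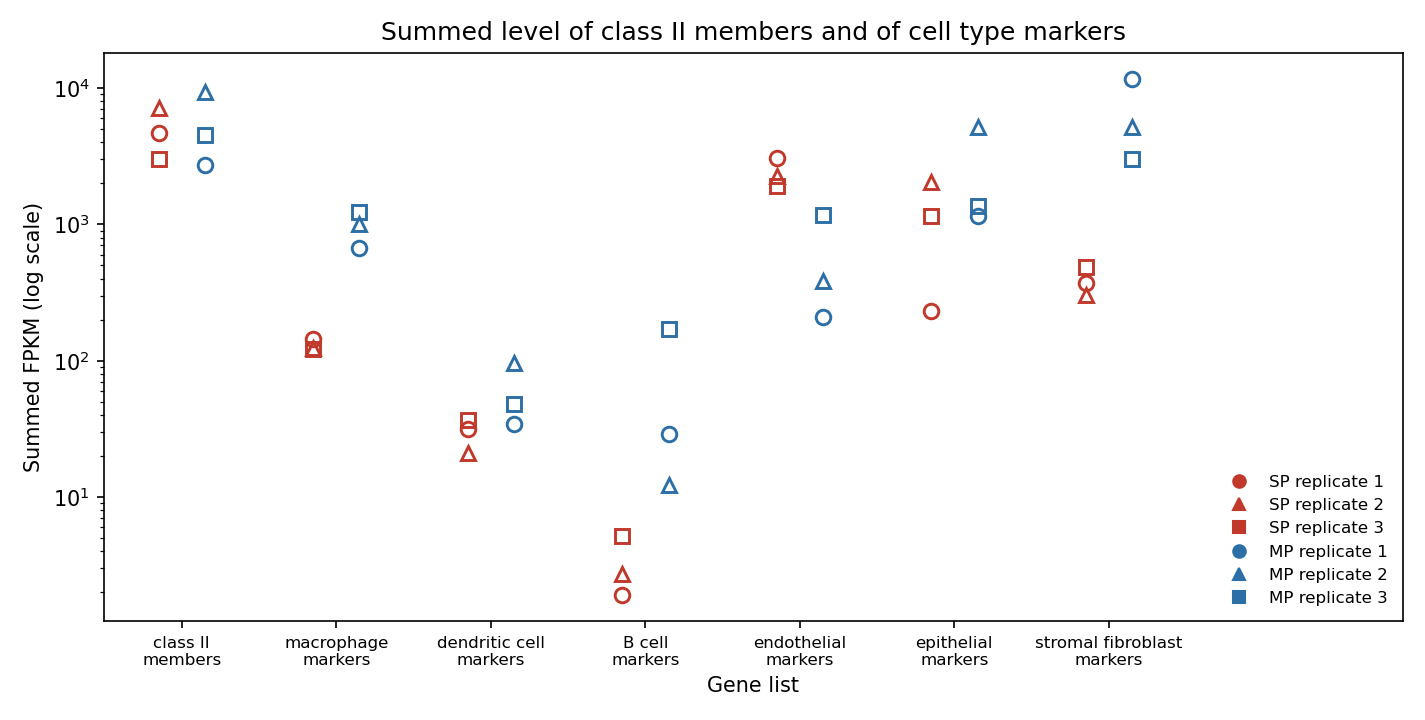
Summed FPKM (log scale) of the 10 class II genes and of the marker lists of 6 cell types in each library; red is SP, blue is MP and the symbol gives the replicate number. The class II sums overlap between the populations, the macrophage and fibroblast sums are lower and the endothelial sums higher in SP, and replicate 2 is highest within each population for both the class II and the epithelial sum.

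The regulators of class II moved in both directions. Of 21 regulators listed 20 were tested, 8 rose and 2 fell (median log2 fold change 0.40, beside 0.01 over all tested genes, of which 20.5% were higher and 18.7% lower in SP). The 8 became 4 or 5 without any one SP library, 4 without MP replicate 1, and 1 without replicate number 1 or without number 2. Of the proteins that bind class II promoters, RFX5 rose from 1.66 to 2.64 FPKM in MP to 3.56 to 4.26 FPKM in SP (log2 fold change 0.72 ± 0.22 SE, limma adjusted p = 0.0367), and CREB1 and NFYB rose by 1.28 and 0.69 on the log2 scale. RFXANK and RFXAP, the other RFX subunits, had −0.03 and −0.06, and NFYA and NFYC 0.18 and −0.19, none passing. In the interferon gamma pathway JAK2 rose by 2.09 ± 0.36 and IRF1 by 2.19 ± 0.47 (SE; limma adjusted p = 0.00564 and 0.0112). IRF1 stood at 835, 468 and 276 FPKM in SP and at 102, 65.6 and 166 FPKM in MP. The receptor chain IFNGR2 fell (log2 fold change −1.24, limma adjusted p = 0.0147), and IFNGR1 had one of 0.93 that did not pass (limma adjusted p = 0.0942). PRDM1, a repressor that shuts CIITA off in plasma cells, rose by 2.60 ± 0.44 (SE). SPI1, the master factor of myeloid cells, had −2.26 and is listed at 0 in SP replicates 1 and 2; it was tested only through MP. NLRC5, the counterpart of CIITA for class I genes, was at 42.4, 21.4 and 29.0 FPKM in SP and at 0.861, 1.80 and 5.15 FPKM in MP (log2 fold change 3.28 ± 0.46 SE, limma adjusted p = 0.00317), and was called in 26 of 26 alternatives.

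The endosomal enzymes that cut antigen and invariant chain and the transport proteins listed with them included 7 that fell and 1, the motor protein KIF5B, that rose, of 15 tested and 18 listed (median −0.74, beside 18.7% lower and 20.5% higher over all tested genes). The 7 became 3 without replicate number 1 and 1 without number 2. IFI30, a reductase that opens disulfide bonds of antigens, was at 12.2, 15.1 and 8.23 FPKM in SP and at 68.1, 87.5 and 47.5 FPKM in MP (log2 fold change −2.42 ± 0.31 SE, limma adjusted p = 0.00255). The cathepsins CTSH, CTSZ and CTSF had log2 fold changes of −1.95, −1.40 and −1.34. CTSS, the cathepsin that trims the invariant chain, did not pass: it was at 70.2, 77.0 and 46.9 FPKM in SP and at 45.4, 72.1 and 48.3 FPKM in MP, a log2 fold change of 0.22. LGMN, the asparagine-specific protease, had 0.78 and did not pass either. Many of these enzymes are made by macrophages and fibroblasts, whose markers fell in the same libraries, and the part of those cells was not tested.

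**Figure D5:**
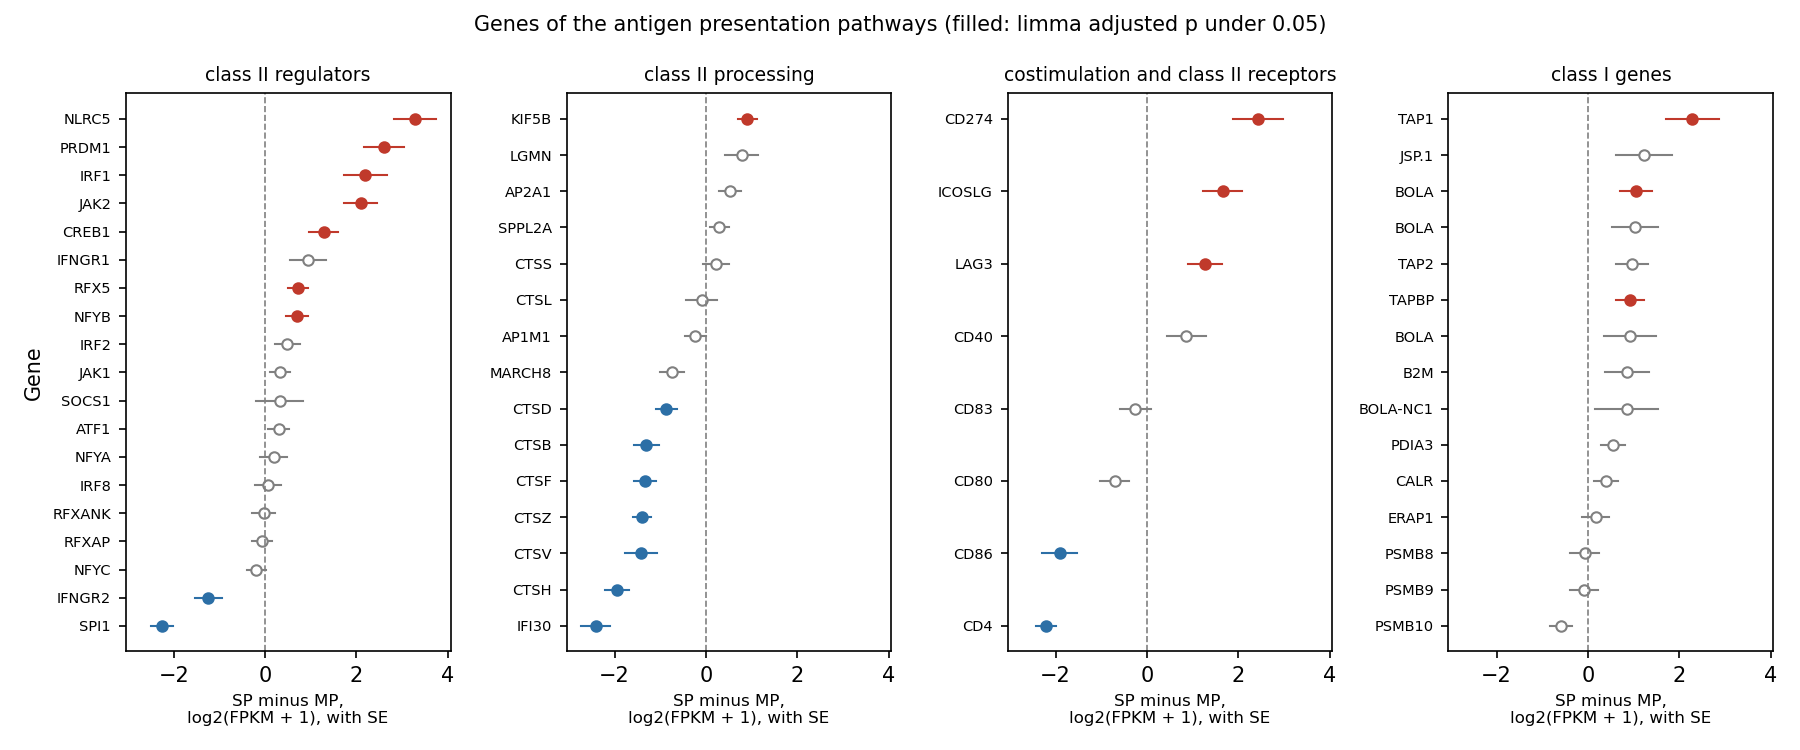
SP minus MP difference on the log2(FPKM + 1) scale (horizontal axis, with SE) for tested genes of 4 lists, with 1 regulator not shown; filled red circles are higher and filled blue circles lower in SP by limma adjusted p. Most regulators and class I genes lie to the right of 0, and 10 of 15 processing genes lie to the left.

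By position, calls of both directions and genes that did not pass alternated along the block. In the IIb block (7035502 to 7323452) TAP1, a peptide transporter of class I, rose by 2.29 ± 0.58 and BRD2, a bromodomain protein, by 1.55 ± 0.35 (SE; limma adjusted p = 0.0192 and 0.0126), while DMB and DMA, which lie between them, did not pass, and DOB before TAP1 and DOA after BRD2 fell. PSMB8 and PSMB9, immunoproteasome subunits next to TAP1, had −0.07 and −0.09. The listed loci of PSMB9 and TAP1 are the same. Their values are listed apart, and how reads of the shared span were divided is not stated. No listed locus overlapped any of the 10 class II genes.

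The genes most like CD74 over the 6 libraries, outside the class II set, were NSFL1C, CNP, SLC30A3, VOPP1 and TPD52 (Pearson r from 0.958 to 0.996 of log2(FPKM + 1)). Within the set the r with CD74 was 0.984 for DMA, 0.941 for DRA, 0.919 for LOC100848815, 0.914 for DRB3 and 0.856 for DMB, and it was 0.25 for CIITA, 0.15 for DOA and −0.65 for DQB. Among the genes most like CIITA were MAOA, PIGM, UTP25 and SAR1B (r from 0.993 to 0.997), and the highest r of a class II gene with CIITA was 0.25, for CD74. These are descriptions over 6 libraries that share the split of SP and MP.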

How the data were processed

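RNA of sorted SP and MP cells was sequenced from stranded TruSeq mRNA libraries, 3 per population, per the labels' protocols. The submitters' processing notes name cutadapt 2.5, HISAT2 2.1.0 and the build ARS-UCD1.2. The deposited values are FPKM per gene, per the file headers. The sources used here do not name the tool that made them, its annotation or its use of strand. Reads of near-identical DQ and DRB copies may have been split between entries, so the level of a single copy is uncertain. A row without a name, which pools 662 symbols, was left out (0.185% to 0.347% of FPKM in SP, 0.743% to 1.91% in MP).

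Genes of at least 1 FPKM in at least 3 of 6 libraries (12127) were tested with limma 3.58.1 (R 4.3.3, eBayes with trend) on log2(FPKM + 1), with Benjamini-Hochberg adjustment over all of them. Fold changes are on that scale, which understates changes of low genes. The replicate number term was a moderated F test beside population, over genes of at least 1 FPKM in at least 2 libraries (12825). Both fits were tested on simulated data. Samples were grouped by their labels, and the main fit took no replicate number as a pair.

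The class II genes and all lists were chosen with earlier results of these data known. Beyond the class II genes, up to 4 called genes of each list by smallest p were named (2 by level where 0 were called), with the 5 most correlated with CD74 and with CIITA; some genes are not reported here. RFX5, RFXANK, RFXAP, NFYA, NFYB, NFYC, CREB1, IRF1, IFNGR1, IFNGR2, KIF5B, CTSS, LGMN, CD14, CD68, CLDN5, PSMB8, PSMB9, BRD2, LAG3, CD40, CD80 and B2M were named for their role after their values were seen. Alternatives changed the pseudocount, the filter, the scaling, the trend, the block and the libraries. No sequence is printed, since the reference tables used here hold none.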

Additional observations from a re-analysis of the deposited data

How the results depend on the processing

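Depth limits the SP libraries, and low genes such as DYA could not be compared. Over all genes, leaving out libraries or replicate numbers gave 351 to 4938 calls against 4759, with fewer samples in each fit (4455 without MP replicate 3); with the genes tested over all libraries, an alternative chosen after seeing the data, 2617 passed without SP replicate 1, and 3170 and 2964 without MP replicates 1 and 2. The count of class II genes higher in SP, which is CIITA alone, was 0 with a pseudocount of 0.1, with no filter, at a mean of at least 5 FPKM (where CIITA was not tested), with median centring, without the trend and with the replicate block, and 0 to 1 when libraries were left out. The count lower in SP, which is DOA alone, was 0 at a mean of at least 5 FPKM and 0 to 1 when libraries were left out, where DOA fell below the filter; with the genes tested over all libraries it was called each time. Genes called in the replicate number term were 7 with each library rescaled to the same sum, 8 without mitochondrial and ribosomal protein genes and 0 to 22 when libraries were left out. Among class II genes that count was 0 to 1, the 1 being LOC100848815 without SP replicate 1 (limma adjusted p = 0.0329). The causes were not tested beyond the filter and the sample number. The 7 class II genes that did not pass were called under 0 alternatives; the sign of CD74 was positive in 18 and negative in 8 of 26. Deviations of same-numbered libraries correlated at 0.10, 0.53 and −0.09 for numbers 1, 2 and 3, and SP replicate 1 correlated best with MP replicate 3 (0.28). Neither these values nor the labels establish pairs, so the main fit took none. Deviations from a mean of 3 libraries cannot exclude a shared origin either. With the replicate block 4793 genes were called, CIITA had a limma adjusted p of 0.0625, DQA2 one of 0.0458, and 3 epithelial markers were lower in SP. The SE of the difference fell from 0.63 to 0.33 for DRA and from 1.22 to 0.53 for LOC100848815. For DQB it fell from 0.85 to 0.28, and for CD74 from 0.41 to 0.33. None of these genes was called with the block.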

Other observations

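Genes that act beside class II at the cell surface moved in both directions. Of 9 costimulation and receptor genes 8 were tested, 3 rose and 2 fell, and both that fell were tested only through MP. Over all tested genes 20.5% were higher and 18.7% lower in SP. The 3 became 1 without SP replicate 1, MP replicate 1 or MP replicate 2, and 0 without replicate number 1 or without number 2. CD274, the ligand of PD-1, was at 70.7, 23.1 and 23.1 FPKM in SP and at 4.34, 3.09 and 11.1 FPKM in MP (log2 fold change 2.43 ± 0.54 SE, limma adjusted p = 0.0126). ICOSLG, the ligand of ICOS, rose by 1.65 and LAG3, an inhibitory receptor that binds class II, by 1.28 on the log2 scale. CD86, a costimulator of professional antigen-presenting cells, was at 0 to 0.143 FPKM in SP and at 1.41 to 6.34 FPKM in MP, and CD4 at 0.0273 to 0.137 FPKM in SP and at 3.15 to 4.94 FPKM in MP. CD80 and CD40 had log2 fold changes of −0.71 and 0.86 and did not pass.

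Of 15 tested class I entries 3 rose and 0 fell, with a median log2 fold change of 0.86; the share that rose was near the 20.5% over all tested genes. These were TAP1, TAPBP (0.92, limma adjusted p = 0.0444) and 1 of the entries named BOLA (1.05, limma adjusted p = 0.0485). The count was 6 with each library rescaled to the same sum, 1 with median centring, 1 without SP replicate 2, MP replicate 1 or MP replicate 2, and 0 with no filter, without SP replicate 1, or without replicate number 1 or 2. B2M, the light chain of class I, was at 2425, 2698 and 1169 FPKM in SP and at 565, 1344 and 1671 FPKM in MP, and did not pass (limma adjusted p = 0.183).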
